A study of Mus musculus with 4 samples.

Results

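The Toll-like receptors are a family of membrane receptors with which innate immune cells sense microbial products and the contents of dying cells, and Myd88 is the adaptor protein that most of them use. Here 10 genes, Tlr1, Tlr2, Tlr3, Tlr4, Tlr6, Tlr7, Tlr8, Tlr9, Tlr13 and Myd88, were followed by their symbols through a single-cell RNA sequencing matrix of 55450 genes. The cells came from flank tumours of 4T1, a breast carcinoma cell line of the BALB/c strain, in female BALB/c mice aged 6 to 8 weeks. The study's methods describe a sort for the leucocyte protein CD45. All mice received 1000000 4T1 cells in 25 µl PBS, an intravenous injection on day 7, near-infrared (NIR) light of 980 nm at 1.0 W cm-2 for 5 min at a time (on day 8, on day 9 and on day 10), and had their tumours taken on day 13. The injection was PBS in 2 samples and TIOs in 1 sample. TIOs are macrophages filled with light-converting nanoparticles that carry a photosensitizer and RSL3, a glutathione peroxidase 4 inhibitor, and then frozen in liquid nitrogen. The PBS samples thus received the light too. In the remaining sample the title names PBS and the protocol names TIOs, so it was left in neither group.

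The deposited matrix holds whole numbers of unique molecular identifiers (UMIs), each standing for 1 captured transcript molecule, over 33064 barcodes with 4 suffixes. No source used here ties a suffix to a sample. The cells were therefore treated as 1 pooled sample, the 4 suffixes are shown one by one as libraries whose treatment is not known, and no comparison of PBS with TIOs was made. The libraries held 69255999 to 108646352 UMIs, and 101 barcode sequences occurred in more than 1 library. Of the 32133 cells with at least 300 genes and at most 15% mitochondrial UMIs, 27534 (85.7%) fell into 1 of 18 gates. More cells were left by this filter than the study describes as analysed, and no list of those cells was used here. A gate is a set of cells that carry the marker genes of 1 cell type above a limit, so that a name such as neutrophils stands for neutrophil-like cells by those markers. A further 1599 cells with the markers of 2 cell types were left out. The limits were set with the data in view. Of the gates 10 were myeloid (basophils or mast cells among them), 4 were of T or natural killer cells and 4 were not of leucocytes.

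Library 1 stood apart from the others. It held 3930 of the 4118 cells in the tumour or epithelial gate and 658 of the 8506 neutrophils, and its cells had a median of 11698 UMIs against 2641.5, 2695 and 7182 in libraries 2 to 4. In spite of the sort for CD45, tumour or epithelial cells, fibroblasts (3774 cells), endothelial cells (288) and pericytes or smooth muscle cells (198) were present in number. Ptprc, which encodes CD45, was at 8.65 UMIs per 1000000 UMIs (CPM) in the first and 17.02 CPM in the second of these gates, against 145 to 1301 CPM in the leucocyte gates. Of the markers that played no role in the gating, S100a8, a calcium-binding protein abundant in neutrophils, reached 30986 CPM in the neutrophil gate and at most 1033 CPM in any other gate, and Fscn1, an actin-bundling protein of mature dendritic cells, reached 3660 CPM in the mature dendritic gate against 319 CPM in the next. In 2 cases such a marker led elsewhere. Plac8, listed for monocytes, was higher in plasmacytoid dendritic cells (4618 CPM) than in monocytes (3355 CPM), and Cadm1, listed for type 1 dendritic cells, was at 355 CPM in plasmacytoid and 94.9 CPM in type 1 dendritic cells. B or plasma cells numbered 29 and were not ranked.

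The receptors divide by where they sit and what they bind. Tlr1, Tlr2, Tlr4 and Tlr6 encode receptors of the cell surface: Tlr2 pairs with Tlr1 or Tlr6 to bind bacterial lipopeptides, and Tlr4 binds lipopolysaccharide. Tlr3, Tlr7, Tlr8, Tlr9 and Tlr13 encode receptors of endosomes that bind nucleic acids, Tlr3 double-stranded RNA, Tlr7 and Tlr8 RNA and its breakdown products, Tlr9 DNA with unmethylated CpG and Tlr13 a piece of bacterial ribosomal RNA. Myd88 passes their signal to the Irak kinases and on to NF-kappaB, except for Tlr3, which uses Ticam1. In tumours, Tlr2 and Tlr4 are best known on neutrophils, monocytes and macrophages, Tlr7 and Tlr9 on plasmacytoid dendritic cells, and Tlr3 on type 1 dendritic cells.

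In mm10 coordinates (GRCm38, GENCODE vM21) Tlr2 lay on the minus strand at chr3:83836272-83841767 and Tlr4 on the plus strand at chr4:66827584-66930284. Tlr1 (chr5:64924679-64933563) and Tlr6 (chr5:64952031-64960097) were neighbours on the minus strand, 18468 bases apart, and Tlr8 (chrX:167242696-167264329) and Tlr7 (chrX:167304929-167330558) were neighbours on the minus strand of the X chromosome, 40600 bases apart. Tlr13 lay at chrX:106143204-106160493 on the plus strand, Tlr3 at chr8:45395665-45411080 on the minus strand, Tlr9 at chr9:106222598-106226883 on the plus strand and Myd88 at chr9:119335934-119341411 on the minus strand. Myd88 overlaps Slc22a14 on the same strand and Acaa1a on the other, and Tlr3 overlaps Gm45542 on the other strand. Transcripts of Tlr1 and Tlr6 share 454 windows of 50 identical bases, from 469 to 1261 bases before the 3′ end in the longest Tlr1 transcript and from 1408 to 2200 bases before it in the longest Tlr6 transcript. No other pair of the 10 genes shares such a window. Reads from that stretch cannot be given to either gene, so the levels of Tlr1 and Tlr6 are less certain than the others.

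Promoter sequence is shown for a member led by neutrophils (Tlr13), for the adaptor (Myd88) and for the most counted receptor (Tlr2), because Tlr2 and Tlr13 moved together over cell types, as described further on. Each run is the 250 bases before the RefSeq start on the gene's own strand (GRCm38.p6). This start differs from the GENCODE gene limits given above. The Myd88 run lies wholly within those limits, and the Tlr2 and Tlr13 runs reach into theirs. Of the further starts counted below, some of Tlr1, Tlr3 and Tlr6 also have windows within their genes. Capitals mark GAGGAA, the core bound by the myeloid factor PU.1 and its relatives, or GAAANNGAA, a pattern of interferon-response elements, on either strand.
Tlr13, chrX:106143025-106143274, plus strand: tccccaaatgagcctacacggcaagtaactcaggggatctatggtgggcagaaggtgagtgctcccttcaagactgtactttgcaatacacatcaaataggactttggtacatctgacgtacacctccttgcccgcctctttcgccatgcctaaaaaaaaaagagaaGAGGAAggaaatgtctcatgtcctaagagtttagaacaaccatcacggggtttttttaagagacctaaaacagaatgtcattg
Myd88, chr9:119340019-119340268, minus strand: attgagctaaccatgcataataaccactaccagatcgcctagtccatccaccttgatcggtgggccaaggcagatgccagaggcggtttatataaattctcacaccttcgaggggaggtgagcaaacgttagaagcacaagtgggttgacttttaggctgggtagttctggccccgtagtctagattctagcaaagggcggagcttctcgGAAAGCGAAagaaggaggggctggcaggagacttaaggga
Tlr2, chr3:83841609-83841858, minus strand: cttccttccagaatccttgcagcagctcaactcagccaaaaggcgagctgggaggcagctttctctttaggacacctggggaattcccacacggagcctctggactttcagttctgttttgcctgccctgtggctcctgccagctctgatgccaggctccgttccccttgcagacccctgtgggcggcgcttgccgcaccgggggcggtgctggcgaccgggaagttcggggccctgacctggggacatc
Of the 10 members 8 had an entry in the promoter table, with 10 starts between them, and Tlr4 and Tlr7 had none. GAGGAA occurred at 4 of the 10 starts (Tlr1, Tlr8, Tlr9 and Tlr13), beside 23.3% of the 32851 promoters in the table. GAAANNGAA occurred at 3 of the 10 (Tlr6, Tlr8 and Myd88), beside 7.13%, and TGANTCA, the AP-1 motif, at 1 (Tlr9), beside 6.75%. The Tlr2 window held none of these letters.

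All 10 members had their highest level in a myeloid gate, beside 42.6% of the 16939 genes with at least 100 UMIs in gated cells. A level, in CPM, divides a gene's UMIs by those of the whole gate, and its exact 95% Poisson interval covers counting error only. A level is not a count per cell, and the median cell had 1807 UMIs in neutrophils and 7952 in monocytes. In all, 72.4% of the 59332 member UMIs lay in myeloid gates (95% interval 72.0 to 72.8%), where 29.6% of all UMIs and 64.7% of the gated cells lay. The median member had 85.1% of its UMIs there, beside 23.5% for the median gene. Shares by member ran from 24.1% for Tlr3 and 52.9% for Myd88 to 95.6% for Tlr8. Here and below, a share of a gene's UMIs is a share of those in gated cells. Levels are compared between gates and not between genes, since a 3′ tag does not capture every gene with the same efficiency.

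**Figure D1:**
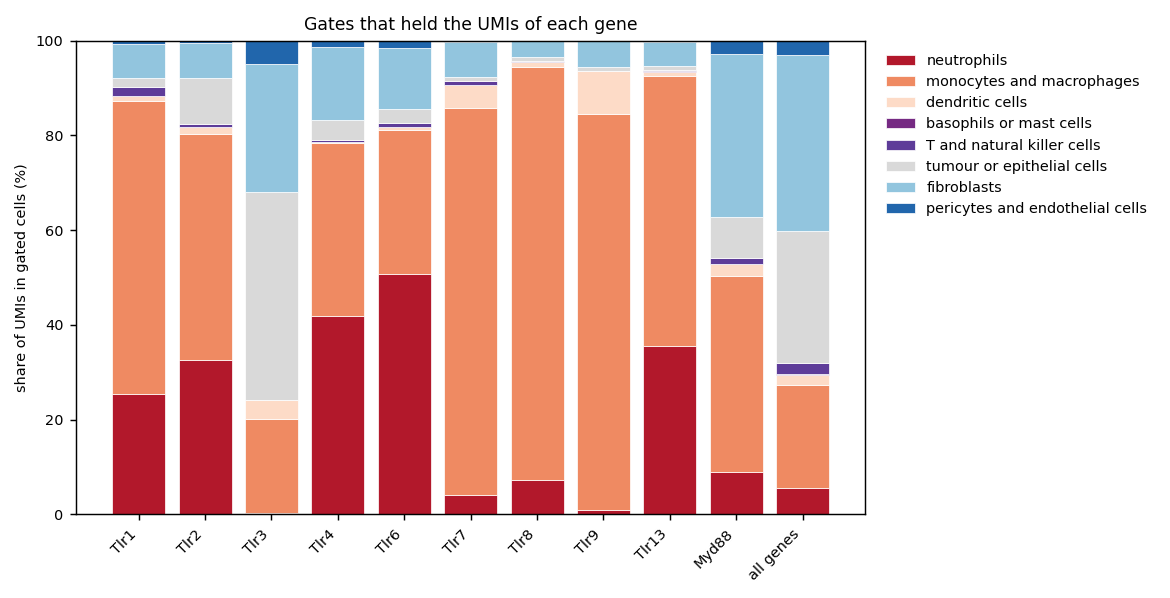
Share of each gene's UMIs in gated cells (%) held by 8 groups of gates, with all genes together in the last bar. Neutrophils hold the largest part for Tlr4 (42.0%) and Tlr6 (50.8%) and tumour or epithelial cells for Tlr3 (43.9%), while monocytes and macrophages do so for the other members. For Myd88 the fibroblasts hold 34.5%.

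Tlr2 was the most counted receptor, with 20012 UMIs in the kept cells, of which 34.1% held at least 1. It was highest in neutrophils, at 322 CPM (314 to 331), followed by the Arg1 Mrc1 macrophages at 139 CPM, a log2 ratio of 1.21 (1.12 to 1.30). In libraries 1 to 4 this ratio was 0.86, 0.62, 1.28 and 1.60, so the pooled value mixes library with cell type. Over the libraries, the neutrophil level was 129 CPM in library 1, 279.5 CPM in library 2, 415 CPM in library 3 and 293 CPM in library 4. Library 1 lay lowest, with an interval of 110 to 151 CPM that did not reach those of the others. In monocytes the Tlr2 level was 202, 219, 209 and 113 CPM in libraries 1 to 4. In library 1 monocytes therefore lay above neutrophils, while in the other libraries neutrophils led. Thinned to 1000 UMIs per cell, 24.3% of neutrophils (23.4 to 25.3%) held a Tlr2 UMI, against 0.398% of CD8 T cells, 0.775% of natural killer cells and 1.60% of fibroblasts. These shares pool libraries of unlike make-up. Of the 255 CD8 T cells 232 came from library 1, where 57 of 560 thinned neutrophils held a Tlr2 UMI. Unthinned, the share in neutrophils was 37.7% at a median of 1807 UMIs per cell, with 24.9% of fibroblasts at a median of 28222. The monocyte and macrophage gates lay above neutrophils unthinned, from 39.6% of Arg1 Mrc1 macrophages to 49.1% of monocytes, at medians of 4924 and 7952 UMIs. After thinning these gates lay below neutrophils, from 10.6% of C1q macrophages to 12.7% of Arg1 Mrc1 macrophages. The pooled T and natural killer cells, which should hold little Tlr2, gave a background of 12.9 CPM (9.8 CPM in library 1). Over all libraries the fibroblasts (11.1 CPM) and endothelial cells (9.61 CPM) lay at or below it. By library the order varied. The gates not of leucocytes together held 12.5 CPM in library 2, against 6.44 CPM (6 UMIs) in its T and natural killer cells. In libraries 3 and 4 they held 8.13 and 11.1 CPM, against 13.5 and 19.4 CPM. Whether fibroblasts hold Tlr2 of their own was not tested, since depth differed between these gates. The tumour or epithelial cells of library 1 had 20.5 CPM (19.5 to 21.5) from 1588 UMIs, above the T and natural killer cells of the same library, and those of library 2 had 8.26 CPM from 65 UMIs.

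Tlr4 was led by neutrophils in each of the 4 libraries. The neutrophil level was 78.6 CPM in library 1, 201 CPM in library 2, 181 CPM in library 3 and 126 CPM in library 4, and 169.5 CPM over all (163 to 176). Monocytes followed at 47.1 CPM, a log2 ratio of 1.85 (1.75 to 1.94). By library the ratio ran from 0.68 in library 1 to 1.66 in library 3, so the pooled value lay above that of each library. Library 4 held 2632 of the 3255 monocytes but 1871 of the 8506 neutrophils, so the pooled ratio mixes library with cell type. Library 1 was again lowest in neutrophils, and neutrophils remained above monocytes in it. The C1q macrophages held 20.1 CPM over all, with 13.4, 30.0, 35.5 and 48.5 CPM in libraries 1 to 4. They lay below the other monocyte and macrophage gates over all but above them in library 4, whose monocytes had 44.97 CPM, and without library 1 they held 40.4 CPM. Of thinned neutrophils 15.1% held a Tlr4 UMI (14.4 to 15.95%). Dendritic cells were low, from 1.84 CPM in mature to 3.72 CPM in type 1 dendritic cells, beside 4.08 CPM in the T and natural killer cells. Fibroblasts (9.30 CPM) and endothelial cells (11.3 CPM) lay above that background in CPM. Of their thinned cells 1.46% and 0.361% held a Tlr4 UMI. Whether these 2 gates hold Tlr4 of their own was not tested, since depth differed between them and the T and natural killer cells.

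Tlr6 had the steepest fall from its leading gate among the surface receptors. Neutrophils held 76.2 CPM, from 29.4 CPM in library 1 through 72.6 and 68.7 CPM in libraries 3 and 4 to 94.5 CPM in library 2, and led in every library. The next gate, the Cd163 macrophages, held 15.0 CPM, a log2 ratio of 2.34 (2.12 to 2.56). In libraries 1 to 4 this ratio was 1.00, 2.64, 1.88 and 2.27. Neutrophils held 50.8% of the Tlr6 UMIs in gated cells although they gave 17177969 of the 307251342 gated UMIs. Tlr1, the other partner of Tlr2, was flatter. It reached 43.1 CPM in neutrophils and 32.3 CPM in Cd163 macrophages, a log2 ratio of 0.42 (0.24 to 0.59). In libraries 1 to 4 this ratio was 2.49, 0.80, -0.18 and 0.48. In libraries 1 and 3 the C1q macrophages led instead, at 21.9 and 61.4 CPM against 20.6 and 35.8 CPM in neutrophils. In both libraries the counting intervals of these 2 gates overlapped. The counts of Tlr1 in lymphoid gates were few, with 11.7 CPM in T cells without Cd4 or Cd8 (17 UMIs), 9.32 CPM in CD4 T cells (25 UMIs), 5.82 CPM in CD8 T cells (8 UMIs) and 3.12 CPM in natural killer cells (5 UMIs), and are not read as expression here. Fibroblasts held 1.82 CPM and tumour or epithelial cells 0.643 CPM. Without library 1, which gave 1469 of the 2186 C1q macrophages, the C1q gate held 36.5 CPM of Tlr1 in place of 25.5 CPM and lay above the Cd163 macrophages (32.9 CPM).

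**Figure D2:**
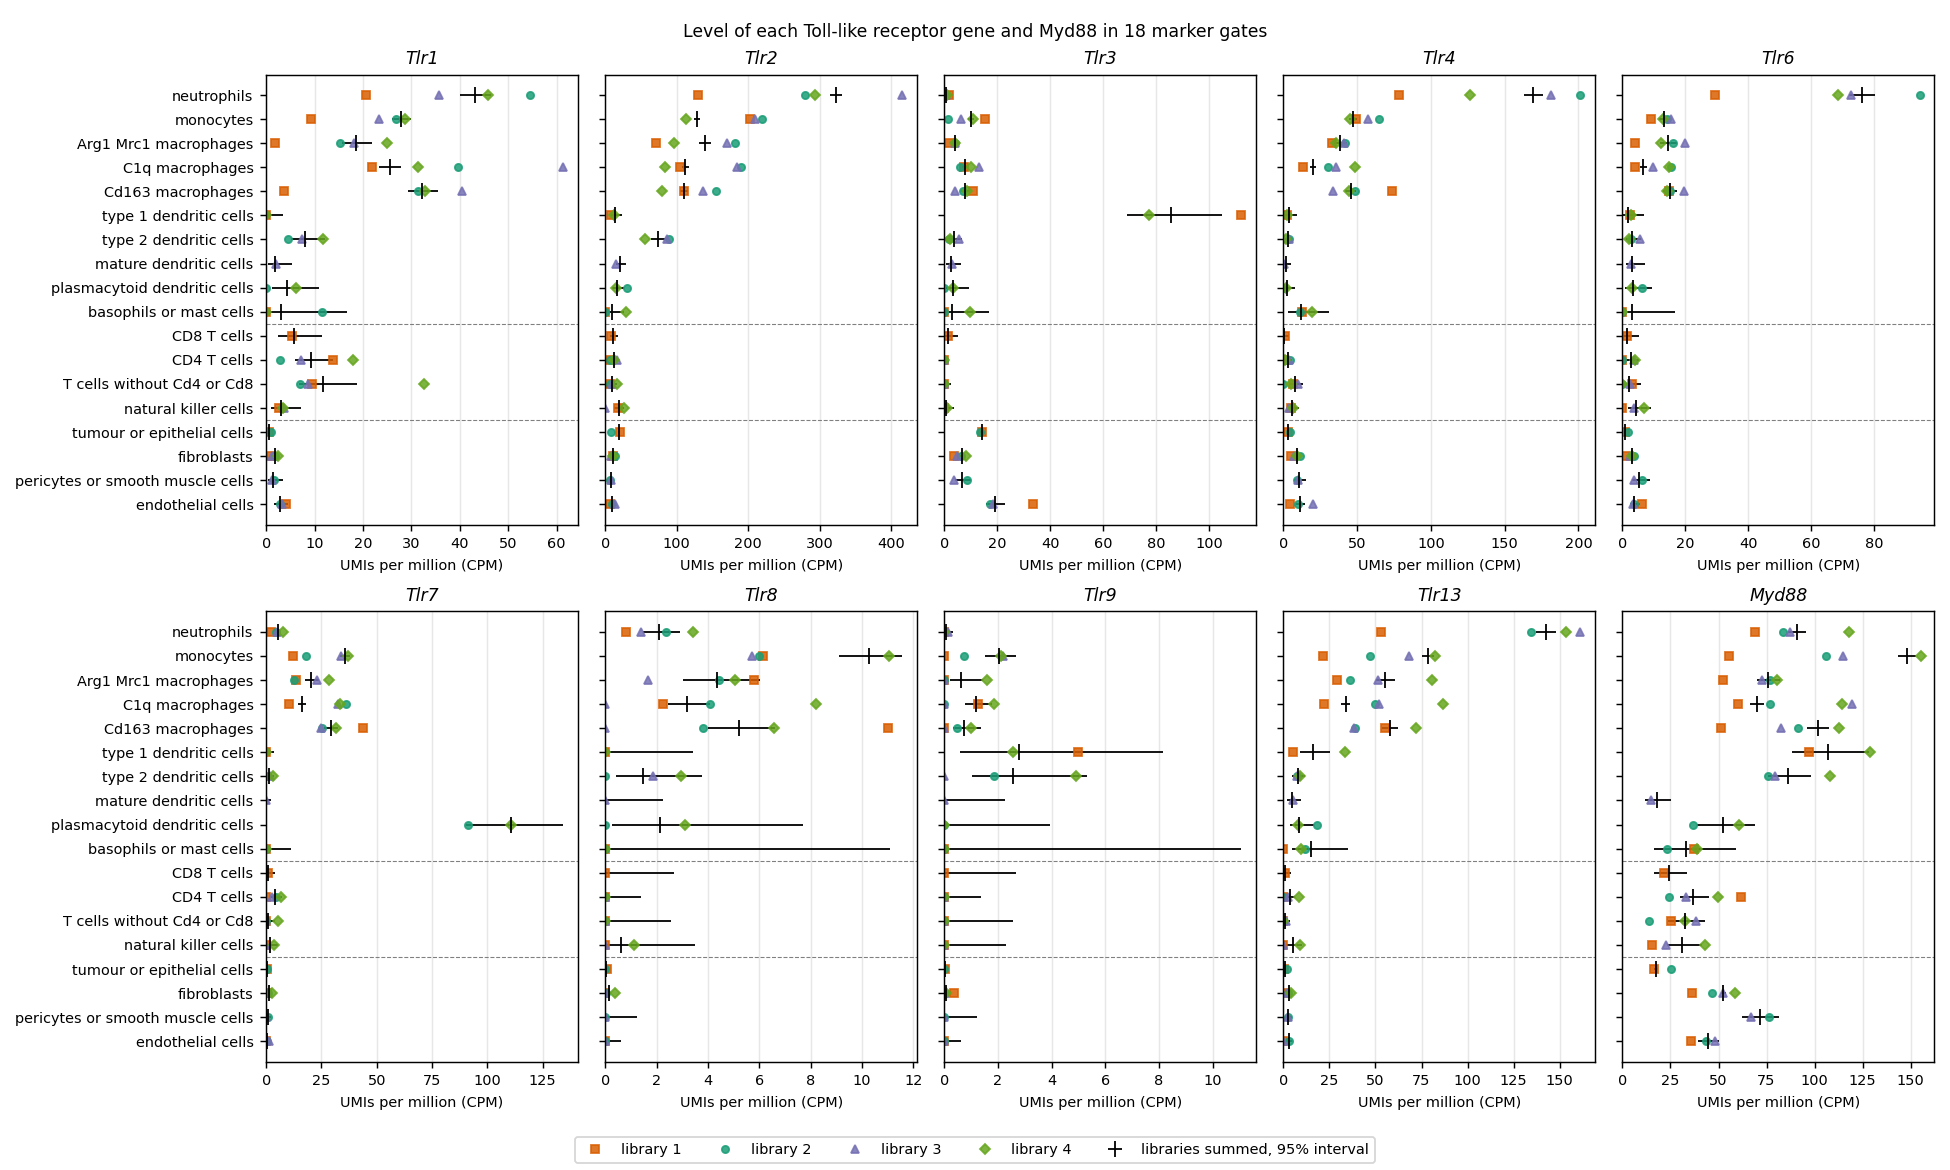
Level of each member (CPM) in the 18 gates, with black ticks for the 4 libraries summed and their exact 95% Poisson intervals, and coloured symbols for each library with at least 20 cells in the gate. Dashed lines part myeloid, lymphoid and other gates. Neutrophils lead for Tlr1, Tlr2, Tlr4, Tlr6 and Tlr13, plasmacytoid dendritic cells for Tlr7, type 1 dendritic cells for Tlr3, and monocytes for Tlr8 and Myd88.

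Among the endosomal receptors, Tlr13 followed the neutrophil pattern of the surface receptors in CPM. Neutrophils held 142.5 CPM (137 to 148) and monocytes 78.5 CPM, a log2 ratio of 0.86 (0.78 to 0.95). In libraries 1 to 4 the ratio was 1.31, 1.51, 1.24 and 0.90. The pooled ratio, which mixes library with cell type, thus lay below that of each library. In neutrophils the libraries gave 53.2, 134, 161 and 154 CPM, with library 1 apart from the rest. In library 1 the Cd163 macrophages, 28 cells with 55.0 CPM (30.8 to 90.7), stood level with neutrophils (41.2 to 67.6). In monocytes Tlr13 was 21.5 CPM in library 1, 47.1 CPM in library 2, 68.2 CPM in library 3 and 82.2 CPM in library 4. T cells, natural killer cells, fibroblasts and tumour cells lay between 0.678 CPM (tumour or epithelial cells) and 5.00 CPM (natural killer cells). Of thinned neutrophils 12.6% held a Tlr13 UMI (11.9 to 13.4%). Unthinned, 30.9% of the monocytes and macrophages held one, against 20.7 to 24.1% in the neutrophil subsets described further on. The 8506 neutrophils held 2448 Tlr13 UMIs and the 3255 monocytes 2078.

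Tlr7 marked the plasmacytoid dendritic cells, which are known for sensing viral RNA with it. The 140 cells of this gate held 110.8 CPM (90.6 to 134), 50% of them had a UMI (10.2% when thinned, against 3.05% of monocytes), and the 2 libraries with at least 20 of them gave 91.5 CPM (26 cells, library 2) and 110.7 CPM (91 cells, library 4). Monocytes followed at 35.6 CPM, a log2 ratio of 1.64 (1.35 to 1.93). Both values of the plasmacytoid cells lay above the monocytes of their own library, at 17.9 and 37.2 CPM. The Cd163, Arg1 Mrc1 and C1q macrophages held 29.2, 20.5 and 16.2 CPM. Their order rests on library 1. The C1q gate had 10.2, 36.2, 32.3 and 33.6 CPM of Tlr7 in libraries 1 to 4, and without library 1 the same 3 gates held 28.8, 21.0 and 34.5 CPM. Neutrophils held 5.24 CPM, and Tlr7 was low in the T and natural killer cells (2.25 CPM) and in tumour or epithelial cells (0.246 CPM). The 3255 monocytes held 42.9% of the Tlr7 UMIs in gated cells.

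Tlr8, the neighbour of Tlr7 on the X chromosome, did not share its leading gate. Monocytes held 10.3 CPM (9.09 to 11.6) and Cd163 macrophages 5.19 CPM, a log2 ratio of 0.98 (0.59 to 1.37). In library 4, which held 249 of the 272 monocyte UMIs, the levels were 11.04 and 6.55 CPM. In library 1 the order was the reverse, at 6.14 CPM in monocytes and 11 CPM in Cd163 macrophages, from 2 and 3 UMIs. Plasmacytoid dendritic cells held 2 Tlr8 UMIs in all. Of the 18 gates 8 held no Tlr8 UMI.

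Tlr9 was at the limit of detection, with 122 UMIs in the 32133 kept cells. Monocytes held 54 of them (2.04 CPM), C1q macrophages 24 (1.20 CPM), type 2 dendritic cells 7 (2.57 CPM) and type 1 dendritic cells 3 (2.79 CPM), so that the order of the 2 leading gates was within counting error (log2 ratio 0.12, -1.83 to 2.07). Plasmacytoid dendritic cells, in which Tlr9 is best known, held 0 UMIs in 140 cells. Taken as 3 counts, the limit that a count of 0 allows is 2.14% of cells with a UMI and 3.20 CPM, while the exact 95% intervals used elsewhere reach 2.60% and 3.93 CPM. Neutrophils held 1 UMI. Differences of Tlr9 between the dendritic gates were not detectable at this depth.

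Tlr3 had another pattern from all other members. Its highest level was in type 1 dendritic cells, 65 cells with 85.6 CPM (69.0 to 105), of which 64.6% held a UMI at a median of 16422 UMIs per cell and 7.69% (2.54 to 17.05%) after thinning. The gate had 112 CPM in library 1 (26 cells) and 77.2 CPM in library 4 (22 cells), the 2 libraries with at least 20 such cells. Endothelial cells came next at 19.2 CPM, with 33.6, 17.2 and 18.2 CPM in libraries 1 to 3, a log2 ratio of 2.16 (1.76 to 2.55) between the 2 gates. Tumour or epithelial cells held 14.3 CPM in library 1 and 13.5 CPM in library 2, and monocytes 10.0 CPM. Fibroblasts held 6.53 CPM. In the T and natural killer cells Tlr3 was 0.422 CPM from 3 UMIs, and in neutrophils 0.640 CPM from 11 UMIs in 8506 cells, with 0.337 to 1.59 CPM over the libraries. Neutrophils, which led for 5 other members, thus held next to no Tlr3.

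Myd88, which the interleukin 1 receptor family uses as well, was found in every gate. Monocytes held 148 CPM (143 to 153), type 1 dendritic cells 107 CPM (88.3 to 128), Cd163 macrophages 102 CPM and neutrophils 90.8 CPM. The monocyte level was 55.2, 106, 115 and 155 CPM in libraries 1 to 4, lowest in library 1. With each library of at least 20 cells in the gate given the same weight, type 1 dendritic cells led monocytes, at 113 against 108 CPM. The first value averages libraries 1 and 4 only (26 and 22 cells) and the second all 4 libraries. The order of these 2 gates is therefore not settled. Among gates with at least 20 cells, type 1 dendritic cells led in library 1, C1q macrophages in library 3 and monocytes in libraries 2 and 4. Library 4 held 2632 of the 3255 monocytes. Outside the myeloid cells Myd88 was 71.4 CPM in pericytes or smooth muscle cells, 52.4 CPM in fibroblasts, 44.7 CPM in endothelial cells, 32.2 CPM in T and natural killer cells and 17.4 CPM in tumour or epithelial cells. Mature dendritic cells, at 17.8 CPM (11.9 to 25.5), lay at the low end of the leucocytes, against 86.4 CPM in type 2 dendritic cells. Library 3 held 166 of the 191 mature but 49 of the 271 type 2 dendritic cells, so the contrast mixes library with cell type.

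The neutrophils of library 1 had an interval below those of all 3 other libraries for Tlr1, Tlr2, Tlr4, Tlr6 and Tlr13, 5 of the 6 members with at least 100 UMIs in the gate. The same held for 10.9% of the 7440 genes with as many UMIs, and 9.56% lay above. For Tlr1 13.5 to 30.2 CPM in library 1 stood below 31.3 to 40.7 CPM in library 3. For Myd88, the remaining member, the library 1 interval of 55.3 to 85.2 CPM overlapped those of libraries 2 and 3. The markers of other cells in the neutrophil gate differed by library, with those of tumour or epithelial cells and of monocytes or macrophages highest in library 1 and those of fibroblasts lowest there. The 7 tumour or epithelial markers summed to 923 CPM in library 1 with none at 0, against 42.1, 4.16 and 2.58 CPM in libraries 2 to 4 with 1, 3 and 4 of them at 0. The 11 monocyte or macrophage markers summed to 719 CPM against 319, 439 and 424 CPM, the 7 fibroblast markers to 171 CPM against 1767, 752 and 1081 CPM, and the 5 T cell markers to 34.1 CPM against 26.6, 36.7 and 36.3 CPM. The median neutrophil had 1616 UMIs in library 1 and 1723 to 1935 in the others. The part of these values and of the unknown treatment in the lower levels was not tested.

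**Figure D3:**
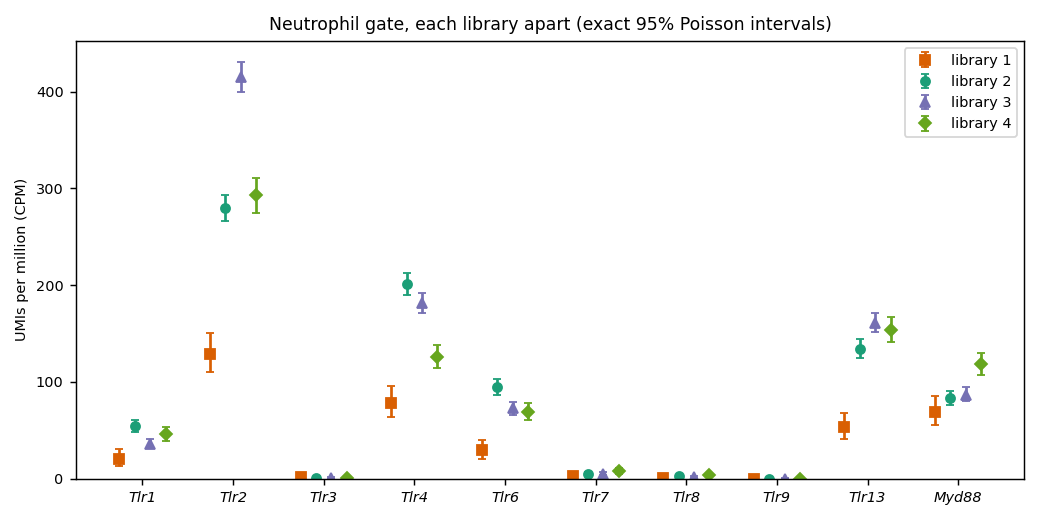
Level (CPM) of each member in the neutrophil gate of each library, with exact 95% Poisson intervals from counting alone. The points of library 1 lie lowest for Tlr1, Tlr2, Tlr4, Tlr6 and Tlr13, at 20.6, 129, 78.6, 29.4 and 53.2 CPM.

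Neutrophils were then split by 2 genes, a split chosen after the data were seen. Cells with Retnlg, a gene of circulating neutrophils, numbered 2982, cells with Cd274 (PD-L1) and no Retnlg 1900, and cells with neither 3624. Tlr2 was 312, 343 and 320.1 CPM in these subsets and Tlr4 158, 172 and 180.1 CPM. Tlr6 was 72.5, 86.9 and 73.4 CPM and Tlr13 138, 149 and 144 CPM. From the lowest to the highest subset the ratio was 1.10 for Tlr2, 1.14 for Tlr4, 1.20 for Tlr6, 1.08 for Tlr13 and 1.33 for Tlr1. These values pool libraries of unlike make-up, and the order of the subsets varied by library. In the same order of subsets, Tlr6 was 94.7, 104 and 86.3 CPM in library 2 but 72.8, 54.8 and 67.3 CPM in library 4. Tlr4 was 196, 183 and 221 CPM in library 2 and 183, 178 and 181 CPM in library 3. Within the Retnlg-positive cells Tlr2 was 139 CPM in library 1 and 286, 390 and 284 CPM in libraries 2 to 4, and Tlr4 was 61.7 CPM against 196, 183 and 121 CPM. Library 1 was thus lowest within this subset too.

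Cells were also compared at equal depth for how many receptors they held. Of neutrophils thinned to 1000 UMIs, 49.9% (48.8 to 51.0%) held a UMI of any of the 9 receptors and 12.8% of 2 or more. The matching shares of monocytes were 30.0% and 3.85%, and of C1q macrophages 20.9% and 2.75%. In CD8 T cells 1.20% held any, and in natural killer cells 1.94%. Without thinning the order of neutrophils and monocytes turned. Then 86.8% of monocytes held any and 57.5% 2 or more, against 69.4% and 29.9% of neutrophils. For C1q macrophages these unthinned shares were 69.4% and 38.2%. Median UMIs per cell were 1807 in neutrophils, 7952 in monocytes and 8417.5 in C1q macrophages. Library 1 held 232 of the 255 CD8 T cells and 1469 of the 2186 C1q macrophages but 658 of the 8506 neutrophils. Library 4 held 2632 of the 3255 monocytes but 1871 of the neutrophils. The contrasts of neutrophils with these 3 gates therefore mix library with cell type. Among thinned neutrophils, a Tlr6 UMI was found in 8.36% of those with Tlr2 and in 7.12% of those without, and a Tlr1 UMI in 3.98% and 4.18%. These values pool the libraries, which differed. For Tlr6, libraries 1 to 4 gave 0 against 3.58%, 10.9 against 7.74%, 7.20 against 7.11% and 8.13 against 7.42%. For Tlr1 they gave 3.51 against 1.39%, 5.20 against 5.06%, 2.72 against 3.74% and 4.78 against 4.41%.

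Over 42 units of 1 gate in 1 library with at least 50 cells, members were compared by how their levels went up and down together (Pearson's r of log2(CPM + 10), a description, since units share libraries and cell types). Tlr2, Tlr4, Tlr6 and Tlr13 went together, with r from 0.79 (Tlr2 with Tlr6) to 0.92 (Tlr4 with Tlr13). Tlr1 was close to them, with r = 0.82 to Tlr13, 0.78 to Tlr2, 0.73 to Tlr4 and 0.72 to Tlr6. Myd88 had r = 0.78, 0.72, 0.68 and 0.62 to the same genes in that order. Tlr7 and Tlr8 had r = 0.70, hardly above Tlr8 with Tlr13 (0.69). Tlr3 stood apart, with r of at most 0.15 to any other member. Its leading gate, the type 1 dendritic cells, gave no unit, with 26, 12, 5 and 22 cells in libraries 1 to 4. The r values of Tlr3 here and below thus describe its other gates only. Plasmacytoid dendritic cells, which led for Tlr7, reached 50 cells only in library 4 (91 cells). Of 11572 genes with at least 1000 UMIs, the most alike to Tlr2 were Igsf6, Cd14 (the co-receptor that hands lipopolysaccharide to Tlr4) and Ccr1, with r from 0.94 to 0.95. Tlr4 was most like Fpr2, Dmxl2 and Fbxl5, and Tlr6 most like Fpr1, Fpr2 and Csf3r, of which Fpr1 and Fpr2 encode formyl peptide receptors and Csf3r, a marker of the neutrophil gate, the receptor of the neutrophil growth factor. Tlr13 was most like B430306N03Rik (r = 0.99), C5ar1, the receptor of complement C5a, and Clec4d. Tlr7 was most like Cd180 (r = 0.93), Tom1 and Nceh1, and Tlr8 like Ms4a8a, Ms4a4a and Oas1g. Tlr1 was most like Ddx60, Cln3 and Tnf, and Tlr3 like Lxn, Plscr3 and Kank3 with r of at most 0.81. Lamp2 and Sirpa were among the genes most like Myd88 (both r = 0.87).

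Of the 58 other genes of the pathway, 47 had their highest level in a myeloid gate, beside 42.6% of all genes, and the median share of their UMIs in myeloid gates was 52.1%. Of the other Toll-like receptors, Tlr11, a sensor of protozoan profilin, was highest in type 1 dendritic cells (35.4 CPM from 38 UMIs). Tlr12 was highest in C1q macrophages over all (14.4 CPM), but all 288 of those UMIs came from library 1, and that gate held 0 Tlr12 UMIs in 717 cells of the other libraries. In plasmacytoid dendritic cells Tlr12 was 9.59 CPM and without library 1 10.3 CPM, from 9 UMIs in both cases. In type 1 dendritic cells it was 9.30 CPM, and 7.42 CPM without library 1. Tlr5 held 9.14 CPM in monocytes and 7.99 CPM in Cd163 macrophages, within counting error of each other (log2 ratio 0.19, -0.14 to 0.53), and a different gate led in each library.

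Of the 9 co-receptors and chaperones 6 were led by a myeloid gate, beside 42.6% of all genes. Cd14 reached 2876 CPM in neutrophils and 963 CPM in Arg1 Mrc1 macrophages. Unc93b1, which escorts the nucleic acid receptors to endosomes, was led by plasmacytoid dendritic cells (618 CPM), and so were Cd180 (102 CPM) and its partner Ly86 (336 CPM). Ly96, which binds lipopolysaccharide together with Tlr4, was highest over all in monocytes (78.1 CPM). They led in libraries 1 and 2, and C1q macrophages led in libraries 3 and 4. Lbp, the lipopolysaccharide carrier, had 94.8% of its UMIs in fibroblasts (381 CPM), which led in every library.

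Of the adaptors Tirap was led by neutrophils (51.0 CPM), and Ticam1 and Ticam2, the adaptors of Tlr3 and Tlr4 that do without Myd88, by type 2 dendritic cells (18 and 21.7 CPM), although Arg1 Mrc1 macrophages held as much Ticam1 (18 CPM). Of 13 kinases and ligases 11 were led by myeloid gates over all, beside 42.6% of all genes. The same gate led in all 4 libraries for 1 of the 13. Traf3, which counts as myeloid by its mature dendritic cells (47.1 CPM), was led by a T cell gate in each library. Irak2 was led by neutrophils in every library (199 CPM against 45.5 CPM in the next gate), while Irak4 varied little between its leading gates (34.3 and 33.4 CPM). Of the transcription factors Irf7 was highest in monocytes (1056 CPM) and Irf5 in type 1 dendritic cells (198 CPM), and Nfkb1 (608 CPM) and Irf3 (39.98 CPM) were led by T or natural killer cells.

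All 12 target genes were led by a myeloid gate, beside 42.6% of all genes, and 5 of them by neutrophils. These were Il1b (14243 CPM), Tnf (1374 CPM), Cxcl2 (49258 CPM), Ccl3 (9795 CPM) and Ptgs2 (1413 CPM), and the first 3 were led by neutrophils in every library. Il12b was highest in mature dendritic cells (331 CPM), of which 166 of 191 were in library 3. Il10 was highest over all in Cd163 macrophages (63.3 CPM). That gate led in library 1 only, where it had 28 cells, and C1q macrophages led in libraries 2 to 4. Ifnb1 was highest over all in monocytes (9.48 CPM, with 9.30 CPM in type 1 dendritic cells). Monocytes led for it in libraries 3 and 4, Cd163 macrophages in library 1 and C1q macrophages in library 2. Il6 was highest in the 84 basophils or mast cells (882 CPM), and 5.12% of its UMIs lay in myeloid gates. Of 6 inhibitors 5 were led by myeloid gates over all, beside 42.6% of all genes, among them Irak3, Tnfaip3 and Nfkbia by neutrophils. For Nfkbia neutrophils led in every library. For Irak3 basophils or mast cells led in library 4. For Tnfaip3 CD4 T cells led in library 1 and T cells without Cd4 or Cd8 in library 4. Of the ligands that tissue or leucocytes release, S100a8 and S100a9 were led by neutrophils and Bgn by fibroblasts (2222 CPM), which held 95.4% of its UMIs.

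**Figure D4:**
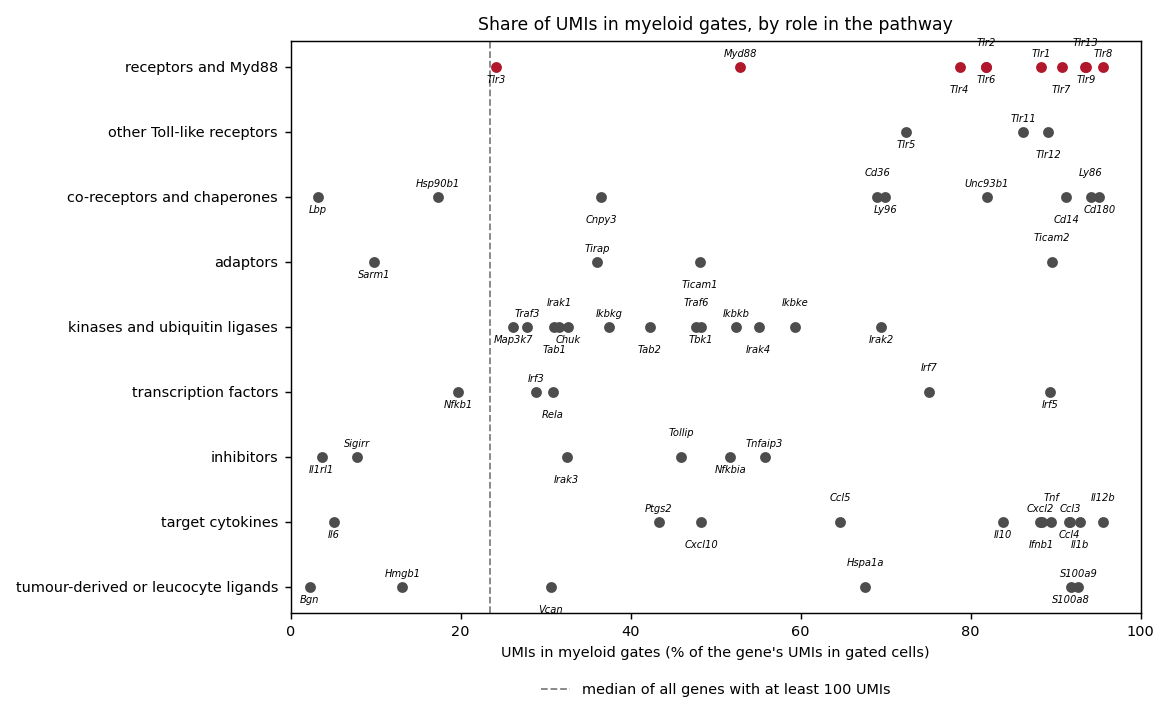
Share of each gene's gated UMIs that lay in myeloid gates (%), by role, with the members in red and the dashed line at 23.5%, the median of all genes with at least 100 UMIs. Tlr3 (24.1%) lies at the dashed line, and the other members lie to its right.

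The same gate led in all 4 libraries for 2 of the 10 members, Tlr4 and Tlr6, beside 8.11% of all genes. Over the 3 libraries other than library 1 the count was 5, beside 13.2% of all genes under that easier condition. Of the 58 pathway genes 10 were led by the same gate in all 4 libraries, to be set beside the 8.11%. Over the 14 alternatives to the processing, Tlr1, Tlr2, Tlr4, Tlr6, Tlr8 and Tlr13 kept their leading gate in each, and Tlr3, Tlr7, Tlr9 and Myd88 changed it in 3, 1, 5 and 1. Tlr3 changed only where type 1 dendritic cells numbered under 50 and were not ranked, while their level stayed at 69.8 to 99.5 CPM, above the endothelial cells. Tlr7 changed only without library 4, where plasmacytoid dendritic cells numbered under 50 and were not ranked, at 111 CPM against 26.7 CPM in monocytes.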

How the data were processed

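Per the labels and the study's methods, 10x Genomics libraries were processed with Cell Ranger, given as version 2.1.1 in the submitters' processing notes with build mm10, as 3.0.2 in the protocol and as 6.1.2 in the matrix header. The authors deposited 1 matrix of UMI counts, not normalized. All other steps were made here. A cell was kept if it had 300 genes or more and its mitochondrial UMIs did not exceed 15%. A cell entered a gate if the marker UMIs of 1 lineage per 10000 UMIs passed its limit, with at least 2 marker UMIs, and no other lineage reached over 0.5 of that signal. S100a8, S100a9, Apoe, Plac8, Fscn1, Acta2, Des and Ccr2 were left out of the gates after the data were seen. No doublet caller was run. Monocytes and macrophages were split in order by Cd163, by C1q UMIs of at least 20 per 10000, by Ly6c2 and by Arg1 or Mrc1, and T cells by Cd4 and Cd8. The members and gene lists were chosen with earlier results of these data known. Named genes are the members, the pathway list and, for members with at least 500 UMIs, the 3 most alike genes, of which 1 is not reported here. Levels are summed UMIs per 1000000 UMIs (CPM) with exact Poisson intervals, shares have exact (Clopper-Pearson) binomial intervals of 95%, and both cover counting error only. No p-value was computed, since no replicate was identified. Thinning left out 1890 shallower cells. The steps were tested on simulated data. Python 3.11.15, numpy 2.4.6, scipy 1.17.1 and pandas 2.3.3 were used.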

Additional observations from a re-analysis of the deposited data

How the results depend on the processing

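Of 14 alternatives, the count of members led by a myeloid gate was 9 with gate limits doubled, and 9 to 10 when each library was left out in turn. The count of members led by the same gate in every library was 4 with limits doubled, 1 with cells of 2 lineages assigned to the larger signal, and 2 to 5 with each library left out, the 5 without library 1. Added after the data were seen, levels without library 1 raised the C1q macrophages by over 1.5 times for Tlr4 (20.1 to 40.4 CPM), Tlr6 (6.64 to 14.7), Tlr7 (16.2 to 34.5), Tlr8 (3.20 to 6.05) and Tlr13 (33.8 to 69.8). The share of member UMIs in myeloid gates was 93.0% as a mean over cells, 93.4% with cells thinned to 1000 UMIs and 69.0% with libraries weighted equally, and 66.1 to 76.7% with each library left out. The first 2 of these give each cell the same weight, and so less to the deep fibroblasts and tumour cells. With libraries weighted equally, the log2 ratio of monocytes to type 1 dendritic cells for Myd88 turned to -0.0663. It sets all 4 libraries of monocytes against libraries 1 and 4 of the dendritic cells, and the cause of the turn was not tested. No other of the 139 recomputed log2 ratios turned, and 115 stayed within the counting interval of the value as reported. Of 140 levels in leading gates 114 stayed within theirs, and of 150 shares of cells with a UMI in leading gates 103 did. No paired analysis was possible because the libraries are not linked to samples. Few UMIs limit Tlr9 (122) and Tlr8 (573), and few cells limit the dendritic gates (65 to 271).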
